A study of Mus musculus with 18 samples.

Results

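The response of mouse fibroblasts to 405 min of tunicamycin was described across all genes, from 3 samples treated for 405 min (Tun 405min) and 3 control samples harvested at 0 min, 6 of the 18 samples of the series. The samples were assigned by their labels, and the values of a gene were joined across samples by gene name. All 18 samples came from NIH3T3 cells, an established mouse embryonic fibroblast line, that stably expressed a destabilizing domain fused to superfolder GFP (DD-GFP) and had been sorted by flow cytometry for high GFP, so the cells are a sorted population. The S1 ligand, which keeps the destabilizing domain folded, stayed on the control and tunicamycin-treated cells throughout, and both were kept at 37°C. The treated cells received 5 µM tunicamycin. No control sample was harvested at 405 min, so effects of the drug and of the time in culture cannot be told apart. The other groups were 3 samples each at 45 and 135 min of tunicamycin, used here for comparison, and 6 heat-shocked samples, which entered only the minimum on reads and an alternative fit of all 6 groups. The labels number the replicates but do not say that they were separate cultures, so p-values measure only the spread between these samples. In bulk samples fewer cells that express a gene and less RNA per cell cannot be told apart.

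Tunicamycin blocks the first step of N-linked glycosylation, the transfer of a sugar phosphate to dolichol by the enzyme Dpagt1, so that newly made glycoproteins misfold in the endoplasmic reticulum (ER). The unfolded protein response of the ER has 3 known branches. ATF6 is cut in the Golgi apparatus and moves to the nucleus, IRE1 splices the mRNA of XBP1 and degrades some mRNAs at the ER membrane, and PERK phosphorylates the translation factor eIF2α, which lowers most translation but favours that of ATF4 (the integrated stress response, ISR). ATF6 and XBP1 are known for inducing chaperones and degradation factors of the ER, and ATF4 and its target CHOP (the product of Ddit3) for amino acid metabolism and cell death genes.

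Between 40134634 and 62941548 estimated reads per sample fell on genes in the 6 samples, and 3 reads corresponded to 0.0477 to 0.0747 CPM (reads of a gene after scaling of the libraries to one total), a floor that covers counting error only. The 10 most abundant genes took 6.78% to 8.77% of the reads. No pair of replicates was alike within counting noise (chi-square per degree of freedom 14.3 or more). Control replicate 1 stood apart. The correlation of its log2 CPM with the other control samples was 0.976 and 0.978, against 0.995 between those 2 and 0.993 to 0.995 among the treated samples. Over 12443 genes its deviation from the other control samples followed GC content (Spearman's rho 0.53, across genes of the same libraries), and the treated replicate 1 followed transcript length (rho 0.44). The part of these trends in single results was not tested. Values without control replicate 1 are given for some results only, so a result without such a value may also depend on that sample. All 7 fibroblast markers were detected (21116 to 27704 CPM summed over the markers in the control samples). The leukocyte markers Ptprc and Cd3e had 0 or 1 reads, and the epithelial markers Epcam, Cldn3 and Cldn4 were at 0. Summed over their lists, epithelial markers had 0.636 to 0.929 CPM, endothelial markers 0.266 to 0.750 CPM and leukocyte markers 7.38 to 11.6 CPM in the 6 samples. Of the 9 markers of these lists that had enough reads to be tested, Tek rose and Csf1r fell.

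The changes at 405 min reached across the transcriptome. Of 12731 genes, 2965 rose and 2995 fell at an adjusted p under 0.05 in edgeR's quasi-likelihood test (46.8% called, 23.3% higher and 23.5% lower), and genes past that threshold are said to have risen or fallen throughout. The median log2 fold change was 0.87 among the genes that rose and −0.96 among those that fell, and −0.01 over all genes. A rise of at least 1 on the log2 scale was found for 9.03% of the tested genes and a fall of that size for 11%, and changes of at least 2 for 1.81% and 1.79%. A log2 fold change of at least 3 was found for 82 genes that rose and 32 that fell, and one of at least 4 for 33 and 6. The genes that rose took 19.01% of the normalised reads in the control samples and 36.5% at 405 min. All 3 treated samples lay above all 3 control samples in 30.2% of the tested genes and below them in 28.7%. Without control replicate 1 the counts were 4017 and 3880.

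**Figure D1:**
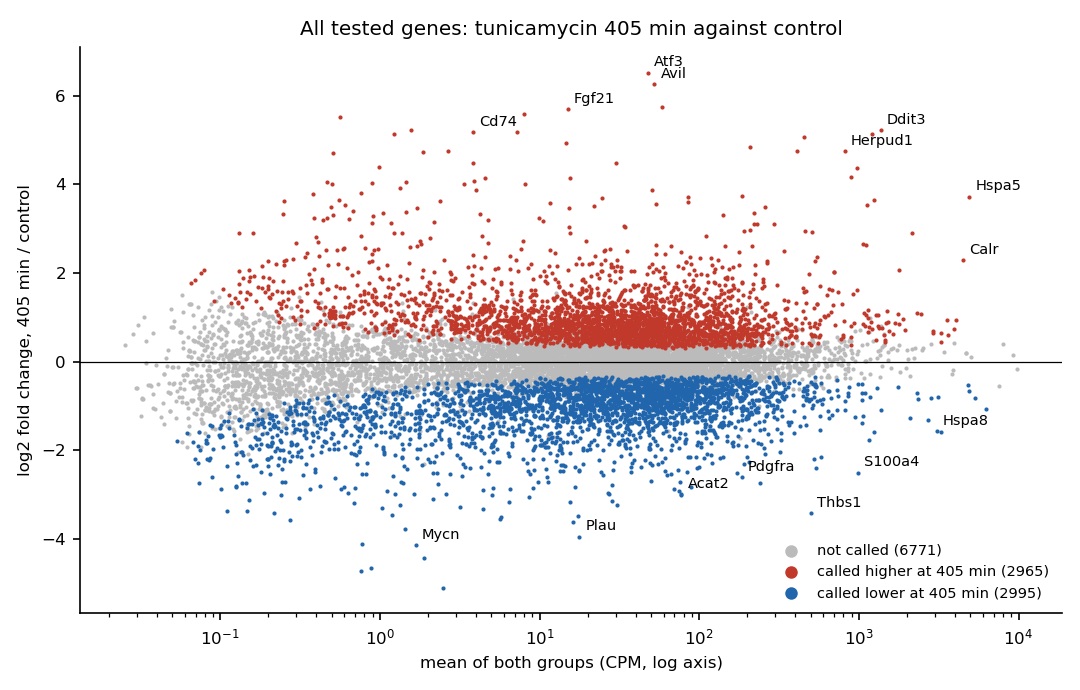
Log2 fold change (405 min over control, y axis) of the 12731 tested genes against the mean level of both groups in CPM (log axis), 1 point a gene. Red points rose (2965), blue points fell (2995), and grey points did not pass an adjusted p of 0.05; Hspa5 and Ddit3 lie far above genes of like abundance.

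Among the genes tested, the largest rise was that of Atf3 (chromosome 1 of mm9, 192994176 to 193007212), a stress-induced transcription factor of the ATF/CREB family. Its level was 1.24, 0.994 and 0.864 CPM in the control samples and 94.5, 96.3 and 92.2 CPM at 405 min (log2 fold change 6.52, SE 0.178, adjusted p = 1.18e-06). The control samples stayed near 1 CPM and the treated samples lay together far above them. Avil, which encodes the actin-binding protein advillin, had 1.54, 1.26 and 1.23 CPM in the control samples and 101, 107 and 102 CPM at 405 min (log2 fold change 6.27, SE 0.160, adjusted p = 1.18e-06). Car6, a secreted carbonic anhydrase, had 1.74, 2.09 and 2.57 CPM in the control samples and 116, 106 and 124 CPM at 405 min (log2 fold change 5.75, SE 0.189, adjusted p = 2.28e-06). In both genes the groups were far apart and the samples of a group close together. Among the other 7 of the 10 largest rises were Fgf21 (5.70 on the log2 scale), Dyrk4, a protein kinase (5.59), Ddit3 (5.22), Atp2a3, a calcium pump of the ER membrane (5.19), and Cd74, the invariant chain of class II antigen presentation (5.18). Sh3tc2 (5.24) and Fam186b completed them at low levels. Fam186b was on average under the floor of 3 reads in control (0.0219 CPM) and at 1.10 CPM at 405 min.

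The 10 largest falls were of genes that ended at 2.45 CPM or less on average. Plau, the urokinase plasminogen activator, had 35.2, 32.5 and 32.4 CPM in the control samples and 2.33, 2.02 and 2.13 CPM at 405 min (log2 fold change −3.95, SE 0.146, adjusted p = 2.68e-06). Mycn, a transcription factor of the MYC family, had 3.19, 3.37 and 2.96 CPM in the control samples and 0.222, 0.0893 and 0.220 CPM at 405 min (log2 fold change −4.14, SE 0.303, adjusted p = 4.23e-05). In neither gene did the groups overlap. Rgs4, a regulator of G protein signalling, fell by 4.42 on the log2 scale, Grpr, a receptor for bombesin-like peptides, by 4.66 (5.54 without treated replicate 3), and Lum, a proteoglycan of the matrix, by 4.11. Scaled over the 12 control and tunicamycin samples, Grpr was under the floor of 3 reads in treated replicates 1 and 2 (0.0322 and 0.0360 CPM). Olfml2a was under it in treated replicates 2 and 3 (0.0360 and 0.0372 CPM). Lum was near it, at 0.0483 to 0.126 CPM in the treated samples. Cd300lb fell by 3.62. The falls of Olfml2a, Glrp1 and Pou4f2, also among the 10, turned on control replicate 1, which was at 3.74 CPM for Olfml2a, 6.22 CPM for Glrp1 and 19.5 CPM for Pou4f2, above the other control samples. Their log2 fold changes were −4.73, −3.78 and −3.54 with it and −2.62, −2.25 and −2.71 without it, and the call of Olfml2a was lost without treated replicate 1 or 2.

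Among the genes that passed the test, the mean rose most for Hspa5, by 8440.5 CPM, followed by Calr (5949), Hsp90b1 (3283) and Ddit3 (2594). The largest losses were of Col1a1, Actb, Hspa8 and Col1a2. These genes were picked after their values were seen. Per length, Hspa5 went from 233 ± 21.4 to 2902 ± 166 RPKM (SD, n = 3), from rank 254 to rank 22 of the tested genes. Ddit3 went from 70.5 ± 2.09 to 2455 ± 313 RPKM, from rank 908 to rank 28. On this scale Ddit3, a transcription factor gene, ranked close to Hspa5 and Calr (rank 18) at 405 min.

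The mRNAs of the sensors and transcription factors of the response rose with their targets. Of this list 13 of 16 tested members rose and 1 fell (median log2 fold change 1.07), against 23.3% of all tested genes that rose. Ddit3 (chromosome 10 of mm9, 126727849 to 126733344) had 74.5, 69.00 and 71.8 CPM in the control samples and 2180.5, 2902 and 2916 CPM at 405 min (log2 fold change 5.22, SE 0.186, adjusted p = 2.45e-06). Xbp1 had 40.4, 44.7 and 46.1 CPM in the control samples and 193, 190.1 and 212 CPM at 405 min (log2 fold change 2.18, SE 0.121, adjusted p = 1.45e-05), counted without telling the spliced form from the unspliced. Atf4, whose translation is favoured when eIF2α is phosphorylated, had 476, 486 and 475 CPM in the control samples and 1392, 1446 and 1558 CPM at 405 min (log2 fold change 1.61, SE 0.125, adjusted p = 5.58e-05). In all 3 genes every treated sample lay above every control sample, and the control samples differed little. Among the sensors, Eif2ak3, which encodes PERK, rose 3.25-fold, Atf6 2.18-fold and Ern1, which encodes IRE1, 1.93-fold (adjusted p = 6.86e-05, 0.00067 and 0.000536). Cebpb (1.48 on the log2 scale), a partner of CHOP in dimers, and the membrane-bound factors Creb3l2 (1.38), Creb3 (1.01) and Creb3l1 (1.004) rose too. Mbtps1, the first protease that cuts ATF6 in the Golgi apparatus, fell by 0.47, a call that was lost without treated replicate 2 or 3. Atf5, an ATF4 relative, had 1399.5, 434 and 539 CPM in the control samples and 1038, 2142 and 1532 CPM at 405 min, and its groups overlapped (adjusted p = 0.101).

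Most genes of ER chaperones and their cofactors rose. Of this list 19 of 26 tested members rose and 1 fell (median log2 fold change 1.67), and their summed level was 5849.6 to 6858 CPM over the control samples and 33812 to 34346 CPM at 405 min. This list median was the highest with all samples, and without control replicate 1 it was under the 1.70 of the ISR effectors. Hspa5 (chromosome 2 of mm9, 34627610 to 34632049) encodes BiP, the Hsp70 of the ER lumen, and had 661, 679 and 731 CPM in the control samples and 9359, 8919.7 and 9114 CPM at 405 min (log2 fold change 3.73, SE 0.154, adjusted p = 4.64e-06). Creld2, a secreted ER stress protein, had 66.1, 66.5 and 68.8 CPM in the control samples and 2195, 2387 and 2453 CPM at 405 min (log2 fold change 5.13, SE 0.149, adjusted p = 1.18e-06). Sdf2l1, a component of chaperone complexes with BiP, had 31.9, 22.6 and 24.1 CPM in the control samples and 811, 884 and 956 CPM at 405 min (log2 fold change 5.08, SE 0.192, adjusted p = 3.06e-06). These 3 genes showed no overlap, with the 3 treated samples within a narrow range. The J-domain cochaperones of BiP rose together, Dnajb9 by 4.48, Dnajc3 by 3.48 and Dnajb11 by 3.11 on the log2 scale. So did its nucleotide exchange factors, Hyou1 (3.53) and Sil1 (0.95), and the stress-secreted factor Manf (4.38).

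Hsp90b1, the Hsp90 of the ER, had 223, 614 and 691 CPM in the control samples and 3786, 4004 and 3589 CPM at 405 min (log2 fold change 2.90, SE 0.385, adjusted p = 0.000639). Control replicate 1 was the lowest of the control samples, and the log2 fold change was 2.54 without it. Of the lectin chaperones that bind monoglucosylated glycans, the soluble calreticulin (Calr) had 1216, 1656 and 1724 CPM in the control samples and 7593, 7681 and 7167 CPM at 405 min (log2 fold change 2.29, SE 0.181, adjusted p = 6.05e-05). The membrane-bound calnexin (Canx) had 296, 519 and 504 CPM in the control samples and 759.6, 549 and 480.2 CPM at 405 min, with overlapping groups (adjusted p = 0.184). The difference between the 2 genes was not tested. Serpinh1, the collagen chaperone HSP47, rose 2.12-fold (adjusted p = 0.00067), while Fkbp9, a prolyl isomerase, fell by 0.82 on the log2 scale (adjusted p = 0.00214).

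**Figure D2:**
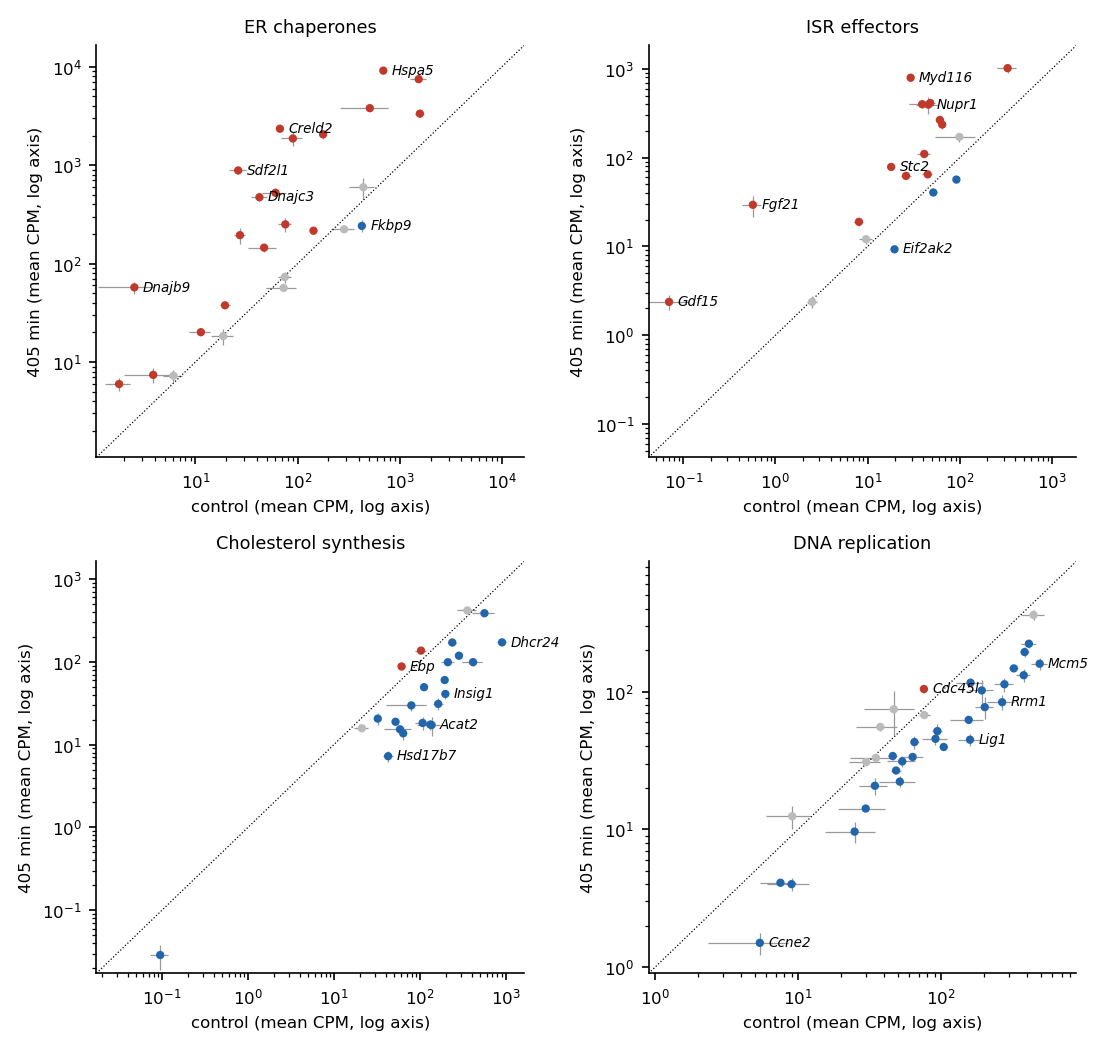
Mean level at 405 min (y axis) against the mean level in control (x axis), both in CPM on log axes, for the tested members of 4 gene lists, with SD bars (n = 3) and a dotted line of equal levels. Red points rose, blue points fell and grey points did not pass the test; most ER chaperones (19 of 26) and ISR effectors (14 of 20) lie above the line, and most cholesterol (20 of 24) and DNA replication genes (27 of 35) below it.

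The ER stress response element, CCAAT and CCACG with 9 bases between them, which binds NF-Y and ATF6, was looked for on both strands of RefSeq promoter windows of 300 bases (250 before to 50 after the start, build GRCm38.p6), which 10059 of the 12731 tested genes had. Of all 27025 genes with a window, 37 held it (0.137%). Among tested genes it stood before 9 of 2381 that rose, 11 of 5305 that did not pass the test and 0 of 2351 that fell. All 9 were among the 180 genes with a window that rose by at least 2 on the log2 scale, a size that 1.81% of all tested genes reached. Apart from Zfp57, an imprinting factor (log2 fold change 2.24), they were ER chaperones, oxidases or degradation factors. The 8 others are shown with 15 bases on either side of the element, which is in capitals, because they are the genes in which the element and a large rise coincide. It reads in reverse in Calr, Creld2 and Ero1lb, and Hsp90b1 holds it once in each direction.
Hspa5 (chr2:34772010-34772058, plus strand): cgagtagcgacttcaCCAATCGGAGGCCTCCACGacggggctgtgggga
Hsp90b1 (chr10:86705518-86705671, minus strand): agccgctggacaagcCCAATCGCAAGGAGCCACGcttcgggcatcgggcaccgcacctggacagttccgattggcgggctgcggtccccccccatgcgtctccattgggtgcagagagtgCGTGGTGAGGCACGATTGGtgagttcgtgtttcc
Calr (chr8:84847060-84847108, minus strand): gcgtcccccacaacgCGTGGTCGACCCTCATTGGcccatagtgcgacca
Creld2 (chr15:88819505-88819553, plus strand): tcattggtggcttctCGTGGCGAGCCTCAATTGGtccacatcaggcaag
Dnajc3 (chr14:118937812-118937860, plus strand): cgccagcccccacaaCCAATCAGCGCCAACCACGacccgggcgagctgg
Pdia6 (chr12:17266476-17266524, plus strand): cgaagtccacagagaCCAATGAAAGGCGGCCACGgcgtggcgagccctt
Ero1lb (chr13:12565667-12565715, plus strand): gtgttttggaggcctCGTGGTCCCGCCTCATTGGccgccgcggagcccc
Syvn1 (chr19:6046517-6046565, plus strand): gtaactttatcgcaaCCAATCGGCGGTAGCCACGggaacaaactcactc
The element of Creld2 lies between 2 divergent genes and falls in the window of Alg12 as well, a mannosyltransferase with 105, 22.5 and 25.7 CPM in the control samples and 144, 102 and 115 CPM at 405 min (log2 fold change 1.24, adjusted p = 0.0906). Canx and Derl3 held the element and did not pass the test. A match is a description of letters and not evidence of binding.

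The genes for disulfide formation and ER-associated degradation followed those for the chaperones, in direction. Of the disulfide isomerases and ER oxidases 13 of 23 tested members rose and 1 fell (median log2 fold change 0.64). Pdia4 had 123, 213 and 217 CPM in the control samples and 2446, 2216 and 2231 CPM at 405 min (log2 fold change 3.64, SE 0.242, adjusted p = 2.95e-05). Ero1lb, an oxidase that recharges the isomerases, had 1.44, 1.76 and 2.18 CPM in the control samples and 24.3, 19.7 and 20.7 CPM at 405 min (log2 fold change 3.58, SE 0.198, adjusted p = 1.43e-05). Both genes had control replicate 1 as their lowest sample and no overlap. Pdia6 rose by 2.65, Ero1l by 2.48 and Pdia3 by 2.02 on the log2 scale, and P4hb, the most studied isomerase of the family, by 1.04. The fall was of Tmx4, a membrane-bound member (−0.89), and the count of falls was 2 without 405 min replicate 1 and 5 without control replicate 1.

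In ER-associated degradation, which moves misfolded proteins back to the cytosol, 18 of 33 tested members rose and 1 fell (median log2 fold change 0.60). Herpud1 (chromosome 8 of mm9, 96910400 to 96919258), a scaffold of the HRD1 ligase complex, had 50.01, 59.05 and 65.7 CPM in the control samples and 1496, 1595 and 1635 CPM at 405 min (log2 fold change 4.76, SE 0.167, adjusted p = 2.45e-06). Syvn1, the ubiquitin ligase HRD1 itself, had 126, 80.2 and 74.4 CPM in the control samples and 1458, 1726 and 1897 CPM at 405 min (log2 fold change 4.18, SE 0.250, adjusted p = 1.9e-05). Every treated sample of both genes lay more than 10 times above every control sample. The HRD1 partner Sel1l rose by 2.92, the derlins Derl2 and Derl1 by 2.43 and 2.18, and Edem1, which marks misfolded glycoproteins, by 1.97 on the log2 scale. The member that fell was 1200003C05Rik (Jkamp, −0.50), and none fell without treated replicate 2 or 3 or control replicate 2 or 3. Vcp, the ATPase that extracts proteins from the membrane, had a log2 fold change of −0.18 (adjusted p = 0.319) and its cofactor Nploc4 one of −0.23 (adjusted p = 0.263). Of 31 proteasome subunits 2 rose and 6 fell (median −0.02), of which the largest fall was that of Psmd1 (−1.15). Without control replicate 1 the counts were 4 and 15, and no subunit rose without treated replicate 2 or 3 or control replicate 2 or 3.

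The mRNAs for entry into the ER rose broadly but moderately. Of 23 genes for the signal recognition particle, its receptor, the translocon and the signal peptidase, 19 rose and none fell, with a median of 0.94 and a range of −0.46 to 2.46 on the log2 scale. The top of that range was Sec11c, a catalytic subunit of the signal peptidase, with 2.33, 4.84 and 4.34 CPM in the control samples and 18.96, 21.7 and 23.1 CPM at 405 min (log2 fold change 2.46, SE 0.263, adjusted p = 0.000228). Sec61a1, which forms the channel, had 462, 353 and 348 CPM in the control samples and 900.3, 714 and 635 CPM at 405 min (log2 fold change 0.95, SE 0.182, adjusted p = 0.00354). Sec61g, a small subunit of the same channel, had a log2 fold change of −0.46 (adjusted p = 0.217). Without control replicate 1 there was 1 fall in the list.

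In N-glycosylation, the pathway that tunicamycin blocks, 24 of 47 tested members rose and 2 fell (median log2 fold change 0.60). Dpagt1 (chromosome 9 of mm9, 44134928 to 44141683), the target of the drug, had 48.4, 41.9 and 40.4 CPM in the control samples and 95.9, 79.8 and 86.6 CPM at 405 min (log2 fold change 1.01, SE 0.132, adjusted p = 0.000594). Every treated sample lay above every control sample. Of the 5 largest rises 4 were of enzymes that supply sugar donors, with Gnpnat1 at 2.13, Gmppb at 1.75, Gmppa at 1.61 and Pmm1 at 1.36 on the log2 scale. Alg2, a mannosyltransferase of the lipid-linked precursor, rose by 1.51. Of the 2 catalytic subunits of the oligosaccharyltransferase, Stt3b had a log2 fold change of 0.01 and Stt3a one of −0.50 (adjusted p = 0.973 and 0.204), whereas the subunits Rpn1 (1.20), Ostc (1.34) and Ddost (0.88) rose. The count of falls was 1 without 405 min replicate 2, 1 without 405 min replicate 3, 7 without control replicate 1 and 1 without control replicate 3.

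Of the coats and adaptors of transport between ER and Golgi apparatus, 23 of 44 tested members rose and 4 fell (median log2 fold change 0.51). The members that rose included Stx5a (2.03) and Bet1 (1.93), SNARE proteins of vesicle fusion, the cargo receptors Tmed2 (1.79) and Tmed3 (1.44), and the tether Uso1 (1.57). All 4 falls were of coat subunits, Copb1, Copb2, Copg2 and Sec24b, from −0.49 to −0.95 on the log2 scale. Of the receptors that return BiP from the Golgi apparatus, Kdelr2 rose (0.71), and Kdelr3 had 33.8, 23.4 and 26.6 CPM in the control samples and 25.98, 22.05 and 23.3 CPM at 405 min with overlapping groups. Only the call of Copg2 held without each sample in turn, and the falls numbered 1 without 405 min replicate 2, 1 without 405 min replicate 3, 2 without control replicate 2 and 2 without control replicate 3.

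**Figure D3:**
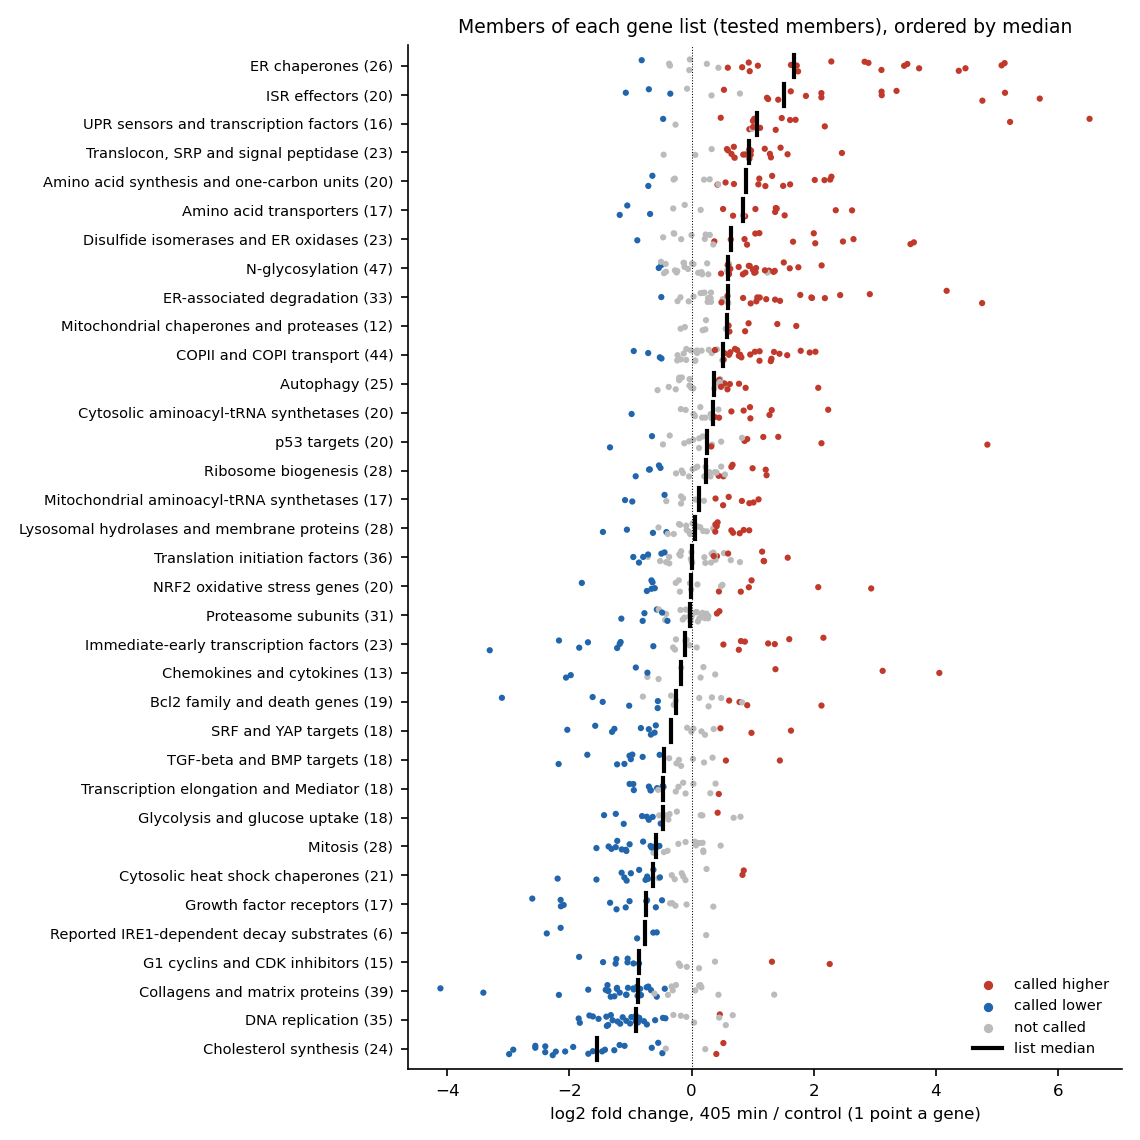
Log2 fold change (405 min over control, x axis) of the tested members of 35 gene lists, 1 point a gene, with the number of members in brackets and a black bar at each list's median. Red points rose, blue points fell and grey points did not pass the test; medians run from −1.54 for cholesterol synthesis to 1.67 for ER chaperones.

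The mRNAs of ISR effectors rose beside those of Atf4 and Ddit3. Of this list 14 of 20 tested members rose and 3 fell (median log2 fold change 1.52). Ppp1r15a, listed under its older name Myd116, encodes GADD34, which directs the dephosphorylation of eIF2α, and had 30.1, 28.4 and 29.5 CPM in the control samples and 737, 796 and 854 CPM at 405 min (log2 fold change 4.76, SE 0.140, adjusted p = 1.18e-06). Fgf21, a hormone of fasting, had 0.556, 0.444 and 0.705 CPM in the control samples and 22.3, 28.3 and 37.6 CPM at 405 min (log2 fold change 5.70, SE 0.283, adjusted p = 1.01e-05). Trib3, a pseudokinase that inhibits AKT, had 53.5, 41.2 and 48.9 CPM in the control samples and 389, 431 and 419 CPM at 405 min (log2 fold change 3.11, SE 0.145, adjusted p = 9.12e-06). None of these 3 genes had overlapping groups, and Fgf21 varied most among the treated samples. Chac1, which degrades glutathione, rose by 3.36, the chromatin-associated Nupr1 by 3.11, and Stc2 and Vegfa, which encode secreted factors, both by 2.13 on the log2 scale. The 3 falls were of eIF2α kinases other than PERK, Eif2ak2 (PKR, −1.08), Eif2ak4 (GCN2, −0.70) and Eif2ak1 (HRI, −0.35), the last not called without treated replicate 2 or 3 or control replicate 2 or 3.

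Amino acid supply genes rose in part. Of the enzymes of amino acid synthesis and one-carbon units 13 of 20 tested members rose and 2 fell (median log2 fold change 0.89), and of the amino acid transporters 10 of 17 rose and 3 fell (median 0.84). Cth, the last enzyme of cysteine synthesis, had 5.94, 12.7 and 12.5 CPM in the control samples and 54.2, 48.1 and 50.6 CPM at 405 min (log2 fold change 2.29, SE 0.273, adjusted p = 0.000386). Slc3a2, the heavy chain shared by several transporters, had 296, 310.1 and 322 CPM in the control samples and 1917, 1973 and 1846 CPM at 405 min (log2 fold change 2.63, SE 0.130, adjusted p = 1.01e-05). The treated samples of Slc3a2 lay within 1846 to 1973 CPM. Psph (2.18), Pycr1 (2.02), Got1 (2.27) and the glycine transporter Slc6a9 (2.36) rose by more than 2 on the log2 scale. Asns, asparagine synthetase, a common ATF4 reporter, had 171, 289 and 274 CPM in the control samples and 349, 308 and 337 CPM at 405 min, without overlap but short of the threshold (log2 fold change 0.44, adjusted p = 0.102). Psat1, which acts between Phgdh and Psph in serine synthesis, had 515, 757 and 855 CPM in the control samples and 671, 542 and 521 CPM at 405 min, with overlapping groups (adjusted p = 0.266).

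Aminoacyl-tRNA synthetases were split. Of the cytosolic enzymes 9 of 20 tested members rose and 1 fell (median log2 fold change 0.35). Wars, for tryptophan, had 90.3, 96.1 and 94.3 CPM in the control samples and 473, 412 and 438 CPM at 405 min (log2 fold change 2.24, SE 0.121, adjusted p = 1.35e-05). Mars, for methionine, was the member that fell, with 367, 254 and 257 CPM in the control samples and 171, 134 and 139 CPM at 405 min (log2 fold change −0.98, SE 0.182, adjusted p = 0.00308). Neither gene had overlapping groups. Nars (1.31), Sars (1.28), Tars (0.96), Yars (0.96) and Gars (0.85) rose. The mitochondrial enzymes had a median of 0.12, with 7 rises and 3 falls among 17, up to 1.10 for Tars2. Their falls numbered 5 without control replicate 1.

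The C/EBP-ATF response element, TGATGNAAT, was held on either strand by 293 of all 27025 genes with a window (1.08%). Among the tested genes it was found in 0.714% of those that rose, 0.340% of those that fell and 0.584% of the others. Fgf21, Nupr1, Pycr1 and Gars, the listed genes that held it and rose without each sample in turn, are shown with the element in capitals. It reads in reverse in all but Pycr1.
Fgf21 (chr7:45615607-45615645, minus strand): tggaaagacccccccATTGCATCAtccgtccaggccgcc
Nupr1 (chr7:126625558-126625596, minus strand): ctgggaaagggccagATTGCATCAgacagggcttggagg
Pycr1 (chr11:120643828-120643866, minus strand): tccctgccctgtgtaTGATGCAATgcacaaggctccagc
Gars (chr6:55037955-55037993, plus strand): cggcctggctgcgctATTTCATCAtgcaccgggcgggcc
These genes differed in size of response, from 5.70 for Fgf21 to 0.85 for Gars on the log2 scale. Aars and Iars, synthetases for alanine and isoleucine, held the element as well, with log2 fold changes of 0.38 and 0.14 and adjusted p = 0.0433 and 0.509, the former called only with all samples or without control replicate 1. The listed matrix gene Fbln5 held it too and fell (log2 fold change −0.44). The element TGACGTGG, bound by XBP1, was held by 193 genes with a window (0.714%). Among the tested genes it was held by 1.51% of those that rose, 0.893% of those that fell and 0.94% of the others. Among the listed genes that rose it stood in the windows of Sec24d (1.30), Stx5a, Txndc11 (1.66), Txndc5 (0.37), Ube2j1 (0.59) and Vegfa, and among those that fell in those of Slc7a6 (−1.18), Copb1 (−0.52) and Copb2 (−0.49). The listed genes Arf1, Eif3a, Hk2, Kdelr3, Sec23a and Vcp held it and did not pass the test. Without treated replicate 2 or 3 the calls of Txndc5, Ube2j1, Copb1 and Copb2 were lost, those of Txndc5, Copb1 and Copb2 also without control replicate 2 or 3, and that of Txndc5 also without treated replicate 1.

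Of 6 mRNAs known as substrates of IRE1-dependent decay, 5 fell and none rose (median −0.76). The falls were 83.3% of this short list, beside 23.5% of all tested genes. Decay by IRE1 was not tested. Scara3, a scavenger receptor, had 63.1, 63.5 and 61.8 CPM in the control samples and 13.8, 11.7 and 10.9 CPM at 405 min (log2 fold change −2.37, SE 0.136, adjusted p = 1.7e-05). Pdgfrb, a receptor for platelet-derived growth factor, had 442, 261 and 267 CPM in the control samples and 74.7, 74.7 and 69.8 CPM at 405 min (log2 fold change −2.15, SE 0.216, adjusted p = 0.000174). Bloc1s1, often used as the reference substrate, had 96.2, 83.3 and 84.7 CPM in the control samples and 82.8, 112 and 117 CPM at 405 min (log2 fold change 0.24, adjusted p = 0.239). The first 2 had no overlap and the last had overlapping groups. Col6a1 fell by 0.89, Hgsnat by 0.63 and Sparc by 0.57 on the log2 scale. The call of Hgsnat was lost without treated replicate 2 or 3 or control replicate 2 or 3 and that of Sparc without any 1 treated sample, and the count of falls was 3 without 405 min replicate 2 and 3 without 405 min replicate 3.

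Genes of the matrix fell. Of the collagens and matrix proteins 28 of 39 fell and none rose (median −0.89), against 23.5% of all genes that fell, and 3 rose without control replicate 1. Thbs1, thrombospondin 1, had 1184, 795 and 759 CPM in the control samples and 109, 76.4 and 72.4 CPM at 405 min (log2 fold change −3.41, SE 0.246, adjusted p = 3.94e-05). Postn, periostin, had 86.98, 99.9 and 113 CPM in the control samples and 27.2, 20.3 and 18.99 CPM at 405 min (log2 fold change −2.17, SE 0.179, adjusted p = 7.05e-05). Col1a1, a chain of type I collagen, had 11522, 6881 and 7145 CPM in the control samples and 3977, 4353 and 3868 CPM at 405 min (log2 fold change −1.07, SE 0.224, adjusted p = 0.00545), and its log2 fold change was −0.79 without control replicate 1, the highest sample. Fibronectin (Fn1) had 10893, 7792 and 7436 CPM in the control samples and 9776, 9729 and 9677 CPM at 405 min, with the treated samples inside the range of the control samples.

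Of 17 growth factor receptors 12 fell and none rose (median −0.74, and −0.49 without control replicate 1). Pdgfra had 335, 296 and 320.3 CPM in the control samples and 57.8, 49.9 and 48.2 CPM at 405 min (log2 fold change −2.61, SE 0.132, adjusted p = 1.11e-05). Met, the receptor for hepatocyte growth factor, had 141, 169 and 154 CPM in the control samples and 40.9, 30.3 and 34.1 CPM at 405 min (log2 fold change −2.14, SE 0.152, adjusted p = 3.71e-05). Neither had overlapping groups. Without treated replicate 2, 7 receptors fell, and without control replicate 1, 1 rose. Among the fibroblast markers 6 of 7 fell, of which S100a4 had 1448, 1783 and 1811 CPM in the control samples and 296, 292 and 305 CPM at 405 min (log2 fold change −2.50, SE 0.146, adjusted p = 1.77e-05). Thy1, the member that did not pass the test, had 258, 251 and 249.8 CPM in the control samples and 219.8, 230.3 and 237 CPM at 405 min, with every treated sample below the control samples.

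Cholesterol synthesis had the lowest list median. Of this list 2 of 24 tested members rose and 20 fell (median log2 fold change −1.54). Acat2, the cytosolic thiolase of the first step, had 151, 134 and 126 CPM in the control samples and 22.2, 15.4 and 14.1 CPM at 405 min (log2 fold change −2.99, SE 0.199, adjusted p = 2.95e-05). Idi1, which makes the isoprene isomer, had 85.6, 156 and 155 CPM in the control samples and 19.5, 14.8 and 18.1 CPM at 405 min (log2 fold change −2.92, SE 0.252, adjusted p = 8.46e-05). In both genes the treated samples lay far below the control samples. The sterol sensors' target Insig1 fell by 2.27 on the log2 scale, and Srebf2, the transcription factor of the pathway, by 0.55 (adjusted p = 0.0494, a call lost without any 1 treated sample, and a log2 fold change of −0.29 without control replicate 1). Ebp (0.52) and Mvd (0.40) were the members that rose, and this count was 1 without 405 min replicate 1, 1 without 405 min replicate 2, 0 without 405 min replicate 3, 1 without control replicate 2 and 1 without control replicate 3. Fatty acid synthase (Fasn), outside the list and named for its loss of abundance, had 2409, 1550.0 and 1422 CPM in the control samples and 553, 490.3 and 546 CPM at 405 min (log2 fold change −1.76, SE 0.215, adjusted p = 0.000425).

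Genes of DNA replication and mitosis fell. Of 35 DNA replication genes 27 fell and 1 rose (median −0.91), and of 28 mitotic genes 15 fell and none rose (median −0.59). The mitotic falls numbered 20 without control replicate 1 and 11 or 12 without any other single sample. Mcm5, a subunit of the replicative helicase, had 560.3, 470.0 and 436 CPM in the control samples and 178, 147 and 153 CPM at 405 min (log2 fold change −1.62, SE 0.148, adjusted p = 0.000111). Lig1, DNA ligase 1, had 128, 183 and 166 CPM in the control samples and 49.5, 43.4 and 41.3 CPM at 405 min (log2 fold change −1.83, SE 0.162, adjusted p = 9.76e-05). Both fell without overlap. The rise was of Cdc45l (0.46), and the count of rises was 2 without control replicate 1, 3 without control replicate 2 and 0 without control replicate 3. Several late mitotic genes had log2 fold changes near 0, among them Plk1 (0.07), Aurkb (0.13) and Cdc20 (0.19), none past the test, while Cenpf (−1.56), Anln (−1.24) and Top2a (−1.14) fell.

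In the G1 list Ccnd1, cyclin D1, had 593, 669.8 and 603 CPM in the control samples and 260.3, 221 and 202 CPM at 405 min (log2 fold change −1.45, SE 0.142, adjusted p = 0.000153). Myc had 167, 203 and 182 CPM in the control samples and 797, 916 and 934 CPM at 405 min (log2 fold change 2.26, SE 0.142, adjusted p = 2.31e-05). Cyclin D1 and Myc thus moved in opposite directions, with no overlap in either. The CDK inhibitor Cdkn1b rose by 1.32, and Cdkn1a had 96.3, 98.5 and 89.5 CPM in the control samples and 97.6, 107 and 105 CPM at 405 min, with overlapping groups (log2 fold change 0.12, adjusted p = 0.397). E2f1 and E2f2 fell by 1.25 and 1.84 on the log2 scale.

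Cytosolic chaperone genes moved against those of ER chaperones. Of this list 2 of 21 tested members rose and 12 fell (median log2 fold change −0.63). Hspa8, the constitutive Hsp70, had 4235, 4828 and 4701 CPM in the control samples and 1656, 1470.0 and 1546 CPM at 405 min (log2 fold change −1.56, SE 0.142, adjusted p = 0.000111). Hsp90aa1 had 622, 980.3 and 1004 CPM in the control samples and 415, 388 and 411 CPM at 405 min (log2 fold change −1.10, SE 0.193, adjusted p = 0.0024). Both were lower in every treated sample. The heat-inducible Hspa1b (−1.06) and Hspa1a (−1.15) and the J-domain protein Dnajb4 (−2.19) fell, whereas Hsf1 (0.85) and Bag3 (0.83) rose. Mitochondrial chaperones and proteases had 6 rises and no fall among 12 (median 0.58). Lonp1, the protease of the matrix, had 294, 241 and 266 CPM in the control samples and 879, 934 and 814 CPM at 405 min (log2 fold change 1.71, SE 0.137, adjusted p = 6.12e-05).

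Lists tied to cell death and other stress pathways held members that moved in both directions. Of the p53 targets 7 of 20 rose and 2 fell (35% and 10%, beside 23.3% and 23.5% of all tested genes, median 0.25). Gadd45a, a growth arrest gene, had 15.2, 12.2 and 14.8 CPM in the control samples and 354, 439.7 and 417 CPM at 405 min (log2 fold change 4.84, SE 0.166, adjusted p = 2.45e-06). The falls were of Sesn1 (−1.34) and Ccng1 (−0.65), and without any single sample other than control replicate 1 only 1 of them was called. Mdm2 had 62.3, 79.4 and 75.2 CPM in the control samples and 98.03, 89.3 and 85.9 CPM at 405 min, short of the threshold (adjusted p = 0.0703). In the Bcl2 family 4 of 19 rose and 6 fell (21.1% and 31.6%), and 10 fell without control replicate 1. Nothing is read from these counts about the family. The BH3-only genes went both ways, Bbc3 (PUMA) rising by 2.13, Bcl2l11 (BIM) falling by 1.62 and Bmf falling by 3.11 on the log2 scale.

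Of the NRF2 list 6 of 20 rose and 6 fell (median −0.02), and the falls numbered 3 without 405 min replicate 2 and 3 without 405 min replicate 3. Hmox1, heme oxygenase 1, had 94.4, 121 and 104 CPM in the control samples and 745, 824 and 883 CPM at 405 min (log2 fold change 2.94, SE 0.153, adjusted p = 1.18e-05). Prdx1, a peroxidase, had 106, 268 and 320.1 CPM in the control samples and 84.98, 59.5 and 55.1 CPM at 405 min (log2 fold change −1.80, SE 0.376, adjusted p = 0.0054). Sqstm1, an autophagy receptor, had 749, 659 and 646 CPM in the control samples and 2814, 2959 and 2875 CPM at 405 min (log2 fold change 2.07, SE 0.138, adjusted p = 2.95e-05). Hmox1 and Sqstm1 were separated by several-fold, and Prdx1 was lowest of the control samples in replicate 1. Besides Sqstm1, 7 of 25 autophagy genes rose by less than 1 on the log2 scale and none fell. With Sqstm1 the rises made up 32% of the list, beside 23.3% of all tested genes. The rises in that list were 4 without treated replicate 2, and 2 fell without control replicate 1.

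Immediate-early factors were divided, with 8 rises and 8 falls among 23. Each made up 34.8% of the list, beside 23.3% and 23.5% of all tested genes. Jun had 175, 196 and 183 CPM in the control samples and 51.6, 56.6 and 46.4 CPM at 405 min (log2 fold change −1.84, SE 0.126, adjusted p = 3.35e-05). Nr4a2, an orphan nuclear receptor, had 5.03, 4.84 and 4.30 CPM in the control samples and 22.5, 19.5 and 21.3 CPM at 405 min (log2 fold change 2.16, SE 0.144, adjusted p = 3e-05). Egr2 (−2.17), Egr3 (−1.70), Fos (−1.18) and Egr1 (−1.16) fell with Jun, whereas Klf4 (1.60), Jund (1.36) and Ier3 (1.25) rose. Of the TGF-beta and BMP targets 9 of 18 fell and 2 rose (50% and 11.1%, beside 23.5% and 23.3% of all tested genes). Their median was −0.45, and −0.25 without control replicate 1. Without treated replicate 2, 1 rose, and Id3, an inhibitor of DNA binding, was the highest (1.44). Of the SRF and YAP targets 9 of 18 fell and 3 rose (50% and 16.7%), from −2.04 for Ctgf to 1.63 for Ankrd1. Their median was −0.33, and −0.24 without control replicate 1. In that list 5 rose without control replicate 1, and 6 fell without treated replicate 2. Actb, beta-actin, had 7537, 3770.3 and 3332 CPM in the control samples and 1949, 1508 and 1444 CPM at 405 min (log2 fold change −1.58, SE 0.315, adjusted p = 0.00434), and its log2 fold change was −1.12 without control replicate 1. Gapdh had 557, 1437 and 997 CPM in the control samples and 1291, 1967 and 1952 CPM at 405 min, with overlapping groups (log2 fold change 0.80, adjusted p = 0.0758). Among the chemokines, Ccl5 had 0.405, 0.0710 and 0.0455 CPM in the control samples and 1.97, 3.16 and 3.06 CPM at 405 min (log2 fold change 4.06, SE 0.573, adjusted p = 0.000859), with a log2 fold change of 5.46 without control replicate 1, the highest of 3 low values. Cxcl12 had 101, 72.2 and 61.1 CPM in the control samples and 19.7, 20.1 and 19.6 CPM at 405 min (log2 fold change −1.98, SE 0.191, adjusted p = 0.000141).

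In glycolysis 8 of 18 genes fell and 1 rose (44.4% and 5.56%, beside 23.5% and 23.3% of all tested genes). The median was −0.47, and the falls included Ldha (−1.24), Hk1 (−1.11) and Pfkl (−1.43). Without control replicate 1, 11 fell and 2 rose, and none rose without treated replicate 2 or 3 or control replicate 3. Of the lysosomal genes 9 of 28 rose by less than 1 and 4 fell, of which Lamp2 fell most (−1.45). These were 32.1% and 14.3% of that list, beside 23.3% and 23.5% of all tested genes. The rises were 4 without 405 min replicate 2, 4 without 405 min replicate 3, 14 without control replicate 1, 5 without control replicate 2 and 5 without control replicate 3, and the falls 2 without 405 min replicate 2, 2 without 405 min replicate 3 and 2 without control replicate 3. With all samples and an offset for GC content, 6 lysosomal genes rose and 8 fell. Translation initiation factors had a median of 0.01, with 7 rises and 6 falls among 36 (13 and 12 without control replicate 1). Eif1, a factor of start codon selection, rose by 1.57, and Eif4e, which binds the mRNA cap, fell by 0.96 on the log2 scale. Of the ribosome biogenesis genes 7 of 28 rose and 5 fell. These were 25% and 17.9% of that list, beside 23.3% and 23.5% of all tested genes. The shares that rose and fell were 19.4% and 16.7% of the translation initiation factors, 6.45% and 19.4% of the proteasome subunits and 30.0% each of the NRF2 list, and nothing is read from these counts about the lists. In ribosome biogenesis the rises were 4 without 405 min replicate 2, 3 without 405 min replicate 3 and 4 without control replicate 3. The falls there were 2 without 405 min replicate 2 and 2 without 405 min replicate 3. The box C/D proteins Nop58 (1.21) and Nop56 (0.998) rose, and the RNA polymerase I factors Rrn3 (−0.92) and Polr1a (−0.70) fell. Of the elongation and Mediator genes 9 of 18 fell and 1 rose (50% and 5.56%, beside 23.5% and 23.3% of all tested genes). The falls were 5 without 405 min replicate 2 and 4 without 405 min replicate 3. No member rose without treated replicate 2 or 3 or control replicate 2 or 3, and 3 rose without control replicate 1. Polr2b, the second largest subunit of RNA polymerase II, fell by 0.95.

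The samples at 405 min were set against the earlier tunicamycin samples as well. Between 405 and 135 min, 2720 genes were higher and 2846 lower at 405 min (43.7% called, 21.4% higher and 22.4% lower), and between 405 and 45 min 3110 and 3574 (52.5% called, 24.4% and 28.1%). The 3 comparisons share the samples of 405 min, so their calls are not independent. Scaled over the 12 control and tunicamycin samples together, all 3 samples at 405 min lay above all 9 others in 94 of the 102 named genes that rose, and below all 9 in 73 of the 93 that fell. Most of these genes were named under a rule that asked for no overlap with control, which set their separation from the control samples. No such count was made over all tested genes. Creld2 had 67.6, 69.8 and 72.3 CPM in control, 65.5, 75.4 and 89.6 CPM at 45 min, 73.4, 50.1 and 51.4 CPM at 135 min and 2223, 2406 and 2487 CPM at 405 min. Hspa5 had 676, 713 and 767 CPM in control, 1027, 990.2 and 951 CPM at 45 min, 518, 443 and 349.6 CPM at 135 min and 9481, 8992 and 9239 CPM at 405 min. Its samples at 135 min lay below the control samples and those at 45 min above them. Of 26 ER chaperones 18 were higher at 405 than at 135 min and none lower, and 19 were higher and 1 lower than at 45 min. Of 28 mitotic genes 6 were higher and 5 lower at 405 than at 135 min (median log2 fold change −0.08). Against 45 min 6 were higher and 7 lower (median −0.04), beside a median of −0.59 against control. Of 35 DNA replication genes 2 were higher and 19 lower than at 135 min (median −0.68). They numbered 4 and 22 against 45 min (median −0.68). Of 21 cytosolic chaperones 1 was higher and 6 lower than at 135 min (median −0.32). Against 45 min these were 3 and 7 (median −0.03).

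Several stress genes were high at 45 min, lower at 135 min and highest at 405 min. Atf3 had 1.27, 1.04 and 0.907 CPM in control, 28.6, 30.9 and 34.1 CPM at 45 min, 5.83, 4.02 and 4.94 CPM at 135 min and 95.8, 97.1 and 93.4 CPM at 405 min. Ddit3 had 76.2, 72.4 and 75.4 CPM in control, 448, 555 and 709.6 CPM at 45 min, 303, 184 and 169 CPM at 135 min and 2209, 2925 and 2956 CPM at 405 min. All samples labelled 45 min lay above all samples labelled 135 min in both genes, and in 49 of the 102 named genes that rose, against 1 with the opposite order. The named genes were mostly picked by their change at 405 min, and no such count was made over all tested genes. Herpud1 went from 286, 292 and 297 CPM at 45 min to 134, 91.02 and 94.6 CPM at 135 min and 1516, 1608 and 1657 CPM at 405 min. Atf4 itself had 487, 511 and 498 CPM in control, 866, 812 and 874 CPM at 45 min, 1179, 725 and 929.9 CPM at 135 min and 1410.5, 1457 and 1579 CPM at 405 min, with the middle groups overlapping. Egr3 was highest at 135 min (42.98, 33.7 and 30.2 CPM) and lowest at 405 min (1.59, 1.78 and 2.05 CPM). The difference between 45 and 135 min was not tested, nor was whether these 2 labels were exchanged. The labels were taken as given for every 45 and 135 min value.

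**Figure D4:**
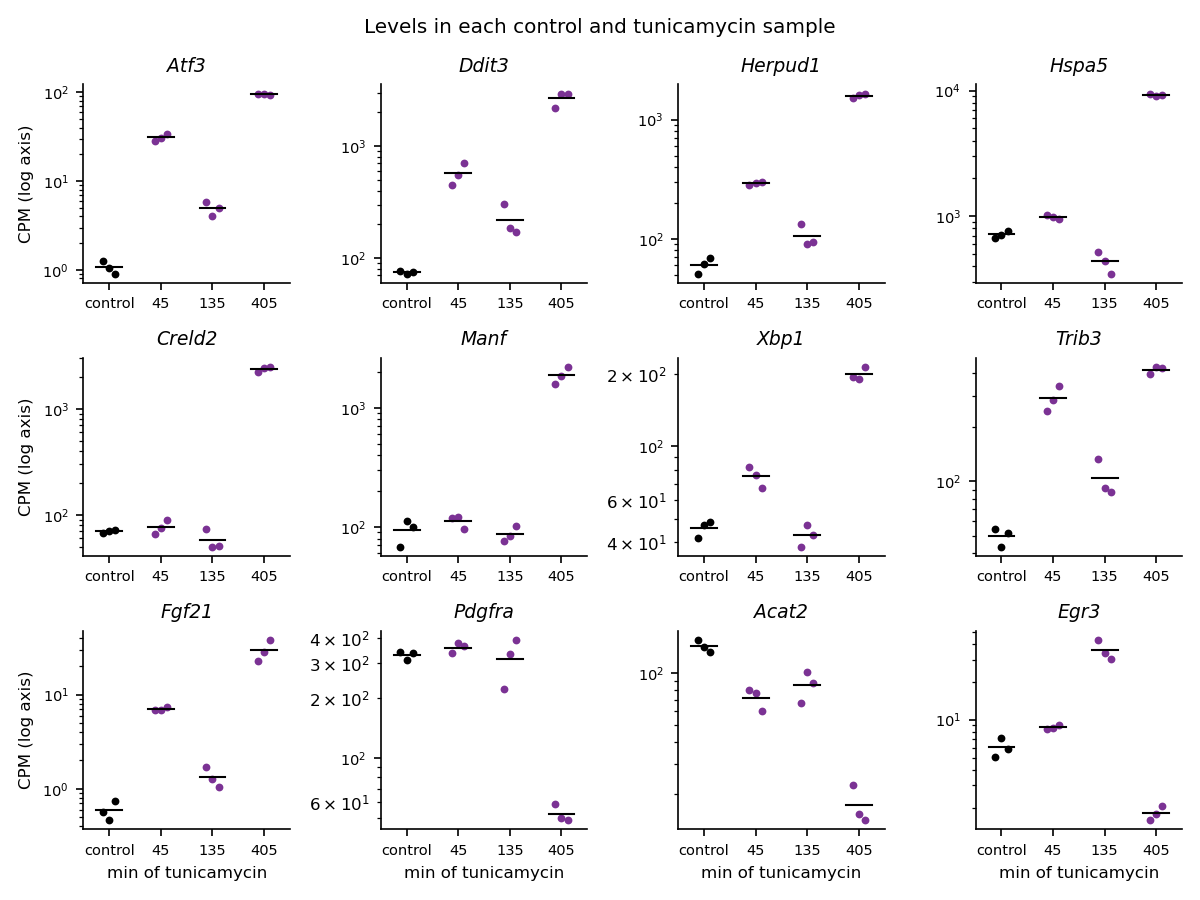
CPM (log axis) of 12 genes in each of the 3 samples of control and of 45, 135 and 405 min of tunicamycin, 1 point a sample with a line at the group mean. Atf3, Ddit3, Herpud1, Trib3 and Fgf21 are higher at 45 than at 135 min, Creld2 and Manf stand out at 405 min alone, and Pdgfra and Acat2 are lowest at 405 min.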

How the data were processed

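Poly(A) RNA of 18 samples was sequenced on an Illumina HiSeq instrument. Per the labels and methods, the authors aligned the reads to mm9 and assigned them to RefSeq genes on the DNAnexus platform, and the aligner and counter are not given in the sources used here. For each gene of a sample the authors deposited an estimated count without normalization, 19.3% to 20.9% of the low ones not whole, and an RPKM, which also divides by gene length and depth. Estimated counts were rounded and tested, and RPKM served only to compare levels between genes. Each table lists 20207 genes. The coordinates of 741 genes differed between tables and were not printed.

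Treated and reference samples were compared in edgeR 4.0.16 (TMM scaling, quasi-likelihood test, Benjamini-Hochberg adjustment, R 4.3.3) for 12731 genes (minimum 1 read in each of the 18 samples) and called at an adjusted p under 0.05. SE came from the fold change and its F statistic. CPM are TMM-scaled within the comparison. Overlapping and antisense genes cannot be separated, as strandedness is not given. The steps were tested on simulated data. Members and gene lists were chosen with earlier results of these data known. Named genes are 18 landmarks, all IRE1 substrates, in each list up to 5 called members with the largest changes (at least 5 CPM, no overlap), and the 10 largest rises and falls with at least 50 reads. Other list members named were chosen after their values were seen. Some genes that the rule names are not reported here. DESeq2 1.42.0 and other settings were alternatives. Promoter windows came from RefSeq. Other steps used Python 3.11.15, numpy 2.4.6, pandas 2.3.3, scipy 1.17.1 and matplotlib 3.10.9.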

Additional observations from a re-analysis of the deposited data

How the results depend on the processing

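Against control, the numbers of genes that rose and fell kept within 1.5 times of 2965 and 2995 under every other filter, scaling, tool and offset tried, as under DESeq2 (3140 and 3160), an offset for GC content (3064 and 3622) and total counts without TMM (2411 and 3414, with the median of all genes at −0.11). Leaving out each sample in turn gave 2014 to 4017 rises and 2053 to 3880 falls. When the change also had to reach 1 on the log2 scale, 1149 rose and 1399 fell. Replicate numbers did not pair the samples (mean correlation of same-numbered deviations −0.0438). With the number as a replicate block 2691 rose and 2579 fell. Against 135 min the block gave 1811 rises and 1939 falls, that minimum change gave 1146 and 1533, and leaving out each sample gave 1692 to 4094 rises and 1855 to 4032 falls, highest without 135 min replicate 1 and lowest without 405 min replicate 3 (1713 and 1880 without replicate 2). Against 45 min the shared fit of all 6 groups gave 1659 and 1769, and the minimum change gave 637 and 1363. Total counts without TMM moved the share of rises among calls there from 46.5% to 33.7% and the median of all genes from −0.06 to −0.21. Of 200 named genes, 195 were called, 171 of them under all 17 alternatives, and of 3400 values 48 lost and 9 gained a call. Most were named for a call, a large change and no overlap, so these counts do not carry over to other genes. Cdkn1a changed sign under the GC offset (−0.0435) and under the GC offset with the replicate block (−0.0421), without passing the test. Depth limits the precision of genes near the floor of 3 reads.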

Other observations

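Genes without a read in at least 1 of the 18 samples were left out of the tests above. The genes given here were chosen after their values were seen, among those that had at least 50 reads on average in the higher group and passed the test without that filter. They passed through the group in which they are high, so their number supports nothing. The most abundant was Sspo, the secreted glycoprotein SCO-spondin, with 7, 2 and 0 reads in the control samples and 1010, 973 and 1077 reads at 405 min. H2-M10.1, a nonclassical class I gene, had 212, 210 and 249 reads at 405 min and none in control, at least 169-fold higher against a floor of 3 reads over the group. Acox2, a peroxisomal oxidase, had 72, 57 and 56 reads against none, at least 46.5-fold higher on the same floor. The reads of H2-M10.1 are uncertain, since its family holds near-identical copies. Il23a, the p19 subunit of interleukin 23, had 113 reads in each treated sample and 0, 0 and 3 in control. Klf15, a transcription factor of fasting metabolism, had 180, 188 and 181 reads against 7, 3 and 0, and Saa3, an acute-phase protein, 74, 80 and 84 reads against 0, 0 and 1.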
